A study of Homo sapiens with 4 samples.

Results

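The AP-1 transcription factors described here are 10 genes, FOS, FOSB, FOSL1, FOSL2, JUN, JUNB, JUND, ATF3, BATF and MAFF, found by symbol among the 36601 genes counted in both droplet libraries. They were measured by droplet RNA sequencing of microglia-like cells that had been differentiated from H9 (an established line of human embryonic stem cells), in 12 cultures that fell into 4 conditions of 3. SemaLPS cultures received semagacestat, an inhibitor of the membrane protease γ-secretase, at 2 µM for 22 h, with 200 ng/mL of bacterial lipopolysaccharide (LPS) present for the final 6 h. LPS cultures received DMSO, the vehicle of the inhibitor, with the same LPS. Sema cultures received the inhibitor with PBS, the vehicle of LPS, and Ctrl cultures received both vehicles. All cultures shared the rest: monocyte-like precursors collected on day 25, 7 days in a medium with TGF-β, IL-34 and cholesterol, and detachment with 5 µM actinomycin D, which blocks transcription while cells are handled. The study asked what blocking γ-secretase does to expression and whether LPS overrides it. The cultures are of 1 line, the labels do not say what separates cultures 1, 2 and 3, and p-values rest on how far these cultures differ from each other.

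AP-1 is a pair of basic leucine zipper (bZIP) proteins that grip DNA like a clamp. FOS proteins typically bind as partners of a JUN protein, and JUN proteins can also pair with each other. ATF, BATF and small MAF proteins each pair with some of these or with other bZIP proteins and shift which sites are read. The classic sites are the TPA response element (TRE, TGACTCA) and the cyclic AMP response element (CRE, TGACGTCA). In macrophages and microglia the family is known for relaying MAP kinase signals from receptors such as TLR4, the LPS receptor, to cytokine genes, and several members are immediate-early genes, whose transcripts rise and decay within hours of a stimulus and also respond to handling of the cells.

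The members lie on 6 chromosomes by GENCODE v29 (GRCh38), where all 10 are annotated as protein-coding. JUN spans chr1:58780788-58784327 (minus strand) and ATF3 chr1:212565334-212620777 (plus). FOSL2 spans chr2:28392448-28417312 (plus) and FOSL1 chr11:65892049-65900573 (minus). FOS, at chr14:75278774-75282230, and BATF, at chr14:75522425-75547015, are on the plus strand of the same chromosome. JUNB (chr19:12791496-12793315, plus), JUND (chr19:18279760-18281622, minus) and FOSB (chr19:45467995-45475179, plus) share another, and MAFF spans chr22:38200767-38216511 (plus).

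The promoter sequences show which members carry AP-1's own sites near the start, and are given for FOS, JUN, FOSL2, JUND and MAFF. Each is RefSeq's window (GRCh38.p14) of 300 bases, from 250 before the transcription start to 50 after it, printed 5′ to 3′ on the gene's strand. Capitals mark a TRE, a CRE or the JUN-type variant TGACATCA. FOS is at chr14:75278578-75278877 (plus strand), JUN at chr1:58783998-58784297 (minus), FOSL2 at chr2:28392608-28392907 (plus), JUND at chr19:18281573-18281872 (minus), and the upstream of 2 MAFF windows at chr22:38201744-38202043 (plus).
FOS: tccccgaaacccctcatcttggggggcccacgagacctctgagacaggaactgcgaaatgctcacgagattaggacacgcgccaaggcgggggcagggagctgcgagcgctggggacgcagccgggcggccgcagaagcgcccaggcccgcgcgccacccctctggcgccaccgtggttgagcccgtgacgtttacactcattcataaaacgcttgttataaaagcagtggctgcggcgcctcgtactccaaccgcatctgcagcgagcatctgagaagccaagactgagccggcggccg
JUN: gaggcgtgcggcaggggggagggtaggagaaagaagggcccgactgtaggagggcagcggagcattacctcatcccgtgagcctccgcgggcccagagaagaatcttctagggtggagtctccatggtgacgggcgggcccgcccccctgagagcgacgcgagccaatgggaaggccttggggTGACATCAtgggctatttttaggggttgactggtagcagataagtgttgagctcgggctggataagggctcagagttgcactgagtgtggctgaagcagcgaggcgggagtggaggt
FOSL2: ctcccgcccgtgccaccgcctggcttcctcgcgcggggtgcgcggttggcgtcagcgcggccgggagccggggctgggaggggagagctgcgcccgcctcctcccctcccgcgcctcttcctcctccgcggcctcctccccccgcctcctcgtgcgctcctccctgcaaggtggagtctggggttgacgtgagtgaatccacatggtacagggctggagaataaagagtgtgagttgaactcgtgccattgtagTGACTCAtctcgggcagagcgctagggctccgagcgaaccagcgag
JUND: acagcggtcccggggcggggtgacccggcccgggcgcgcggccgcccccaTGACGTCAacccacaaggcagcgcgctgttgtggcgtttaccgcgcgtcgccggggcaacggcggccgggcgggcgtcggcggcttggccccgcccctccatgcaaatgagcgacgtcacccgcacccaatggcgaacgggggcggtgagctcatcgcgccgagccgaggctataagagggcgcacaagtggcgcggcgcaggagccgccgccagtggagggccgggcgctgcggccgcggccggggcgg
MAFF: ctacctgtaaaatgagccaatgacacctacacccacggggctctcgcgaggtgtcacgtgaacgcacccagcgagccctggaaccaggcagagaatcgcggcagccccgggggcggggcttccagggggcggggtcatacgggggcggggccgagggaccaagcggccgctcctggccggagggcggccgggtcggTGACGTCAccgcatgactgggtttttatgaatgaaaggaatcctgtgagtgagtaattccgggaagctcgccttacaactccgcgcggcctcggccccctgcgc

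In these windows JUN holds TGACATCA at −67 relative to the start, FOSL2 holds TGACTCA at 5, JUND holds TGACGTCA at −200 and MAFF holds it at −54. The FOS window has no capitals and carries a TATA box (TATAAA) at −33. The BATF, JUNB and FOSB windows, not printed, also lack a TRE, a CRE and TGACATCA. RefSeq's table held 11 windows for 9 of the 10 members (ATF3 and MAFF have 2 each, FOSL1 has none). Over both strands, TGACTCA was found in 1 of the 11 windows and in 4.95% of all 35116 windows of the table, TGACGTCA in 2 of 11 and 1.85%, and TGACATCA in 2 of 11 and 2.61%, the second being the upstream ATF3 window at −123. On the gene's strand TATAAA was in 4 of 11 windows (FOS, JUNB, FOSB and the downstream ATF3 window) and in 7.33% of all. The NF-κB consensus was in 1 of 11 (the downstream MAFF window) and 5.91%, and the CArG box, the serum response factor's site, in 0 of 11 and 1.29%. Sites more than 250 bases upstream of a start lie outside its window and were not searched, for FOS as for the others. No match overlapped a match of another motif.

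The libraries held 28943 barcodes. Of these, 21936 carried 1 hashtag and 15050 passed the filters, with 1053 to 1663 cells and 30433501 to 51793504 unique molecular identifiers (UMIs) per culture. The 2 libraries shared 91 barcode sequences (0.314%), and every culture was in both. The label of microglia was checked against markers: all 12 macrophage and microglia markers were measured, summing to 8165 to 8665 counts scaled to library size (CPM) in SemaLPS, 7742 to 8473 in LPS, 7425 to 7909 in Sema and 7348 to 7522 CPM in Ctrl cultures. TYROBP led the sum, with 875093 UMIs. Of the 12 markers, 5 were higher and 6 lower in LPS against Ctrl cultures, beside 30.3% and 28.9% of all genes. Counts were the same in SemaLPS against Sema cultures, beside 31% and 30.3% of all genes. Of other cell types' markers, the granulocyte genes ELANE and MPO and the globin genes HBB, HBG1 and HBG2 were at 0, and AZU1, another granulocyte gene, had 90 UMIs over all cultures. Others were detected: NKG7 of lymphocytes had 9744 UMIs, TUBB3 of neurons 2861 and COL1A2 of fibroblasts 1618. Summed endothelial markers, led by PECAM1 with 26721 UMIs, were lower with LPS, at 34.7 to 44.2 CPM in SemaLPS and 37.2 to 51.7 in LPS, against 68.1 to 74.2 in Sema and 70.6 to 92.7 CPM in Ctrl cultures. Summed markers of dividing cells were at 282.8 to 430.8 CPM in SemaLPS, 210.3 to 318.2 in LPS, 389.2 to 488.9 in Sema and 275.4 to 494.9 CPM in Ctrl cultures. The share of cells over 10% mitochondrial UMIs, which were left out, was lower with LPS: 22.6, 26.2 and 32.0% in SemaLPS-1 to SemaLPS-3, 20.2, 24.2 and 31.8% in LPS-1 to LPS-3, 26.9, 36.7 and 37.5% in Sema-1 to Sema-3, and 31.4, 39.2 and 36.6% in Ctrl-1 to Ctrl-3. The part of these differences in the results was not tested.

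LPS changed 7 of the 10 members in LPS against Ctrl cultures, 6 upward (BATF, MAFF, FOSL2, JUNB, JUN, JUND) and FOS downward, beside 59.1% of all 15097 genes tested (30.3% higher, 28.9% lower), or 65.2% (33% higher, 32.2% lower) with the culture number as a block. FOSB, FOSL1 and ATF3 did not pass. The members' share of calls is thus near that of all genes. Their median log2 fold change was 0.43, against −0.02 over all genes. Each passing call held in edgeR's quasi-likelihood test with any 1 of the 12 cultures left out, in DESeq2, and in the fit with the culture number as a block. All levels below are CPM after TMM scaling, summed over a culture's cells and listed for cultures 1, 2 and 3. The TMM factors were 0.918 to 0.952 in LPS-treated cultures and 1.05 to 1.09 in the others. This scaling raises the LPS-treated cultures against the others for every gene.

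FOS, the prototype immediate-early gene of the family, was lower with LPS in both LPS comparisons. It stood at 38.3, 44.5 and 33.1 CPM in SemaLPS cultures, 40.3, 45.1 and 35.1 in LPS cultures, 84.9, 81.1 and 72.2 in Sema cultures, and 81.8, 88.6 and 65.7 CPM in Ctrl cultures. Every LPS-treated culture was below every culture without LPS. In LPS against Ctrl cultures FOS was 1.96-fold lower (log2 fold change −0.97, SE 0.124, adjusted p = 1.33e-05, edgeR). In SemaLPS against Sema cultures it was 2.05-fold lower (log2 fold change −1.04, SE 0.123, adjusted p = 6.29e-06).

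FOSL2, which encodes FRA-2, a FOS relative without FOS's strong activation domain, went the other way. Its level was 6.20, 9.89 and 8.97 CPM in SemaLPS cultures, 8.44, 9.03 and 12.7 in LPS, 3.00, 3.48 and 3.62 in Sema, and 3.17, 4.66 and 6.50 CPM in Ctrl cultures. The LPS cultures were all above the Ctrl cultures, by 2.10-fold (log2 1.07, SE 0.231, adjusted p = 0.00121), though SemaLPS-1 was below Ctrl-3. SemaLPS cultures were all above Sema cultures, by 2.48-fold (log2 1.31, SE 0.236, adjusted p = 0.000283).

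The remaining FOS genes were near the floor of the assay. FOSB, another immediate-early partner of JUN proteins, had 153 UMIs in all cultures together: 18, 4 and 6 in SemaLPS, 14, 3 and 11 in LPS, 21, 13 and 22 in Sema, and 17, 10 and 14 UMIs in Ctrl cultures. It was lower in SemaLPS than in the Sema culture of the same number in 3 of 3 pairs, and this passed only with the block (log2 −0.94, SE 0.348, adjusted p = 0.0246; without it −0.95, adjusted p = 0.12). That blocked call was lost without Sema-2 (−0.77, adjusted p = 0.0911), SemaLPS-2 (−0.72, 0.105), Sema-3 (−0.97, 0.0594) or SemaLPS-3 (−0.74, 0.119), and the unblocked fit made it only without SemaLPS-1 (−1.90, 0.00697). FOSL1, which encodes FRA-1, had 403 UMIs, between 0.69 and 1.10 CPM over the 12 cultures, with groups that overlapped in every comparison. A change of FOSL1 was not detectable at this depth (LPS against Ctrl log2 0.11, SE 0.226, adjusted p = 0.71).

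Of the JUN genes, JUNB had the largest LPS fold. JUNB, which pairs with FOS proteins and BATF, stood at 184.4, 188.8 and 166.8 CPM in SemaLPS cultures, 199.0, 192.1 and 175.6 in LPS, 89.2, 88.3 and 86.4 in Sema, and 89.7, 102.0 and 90.3 CPM in Ctrl cultures. Every LPS-treated culture was above every other, 2.01-fold in LPS against Ctrl cultures (log2 1.01, SE 0.0615, adjusted p = 8.31e-09) and 2.05-fold in SemaLPS against Sema cultures (log2 1.03, SE 0.0613, adjusted p = 5.83e-09).

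JUND, the member usually made without a stimulus, had 234.1, 259.96 and 265.9 CPM in SemaLPS cultures, 268.9, 252.9 and 316.6 in LPS, 176.5, 181.2 and 193.2 in Sema, and 202.2, 212.6 and 230.3 CPM in Ctrl cultures. After TMM scaling, LPS-treated cultures were again all above the others. Without that scaling they overlapped, with SemaLPS-1 at 219.0 CPM and Ctrl-1 at 220.4 CPM, and LPS-2 at 240.7 CPM and Ctrl-3 at 243.6 CPM. The rise was 1.30-fold in LPS against Ctrl cultures (log2 0.38, SE 0.0772, adjusted p = 0.000799) and 1.38-fold in SemaLPS against Sema cultures (log2 0.46, SE 0.0772, adjusted p = 0.000142).

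JUN, the founding member and a substrate of the JNK kinases, was at 36.9, 47.2 and 41.1 CPM in SemaLPS cultures, 45.5, 48.4 and 37.2 in LPS, 30.6, 39.0 and 29.9 in Sema, and 27.8, 36.8 and 29.8 CPM in Ctrl cultures. The LPS cultures were all above the Ctrl cultures, by little at the edge (LPS-3 at 37.2 against Ctrl-2 at 36.8 CPM). Without TMM scaling they overlapped, with LPS-3 at 34.1 CPM and Ctrl-2 at 39.6 CPM. The fold of LPS against Ctrl cultures was 1.39 (log2 0.47, SE 0.133, adjusted p = 0.00746). SemaLPS and Sema cultures overlapped, with a log2 fold change of 0.34 (SE 0.131, adjusted p = 0.0388) and the SemaLPS culture higher in 3 of 3 pairs. That call was lost without SemaLPS-2 (0.24, adjusted p = 0.171), Sema-3 (0.25, 0.157), Sema-1 (0.28, 0.123) or SemaLPS-3 (0.35, 0.0627), while the fit with the block gave adjusted p = 0.000154.

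BATF and MAFF had the largest LPS folds of the 10 members. BATF, a short bZIP protein with no activation domain that binds with JUN proteins and IRF factors, had 12.4, 14.0 and 11.6 CPM in SemaLPS cultures, 13.8, 13.9 and 11.3 in LPS, 1.84, 2.42 and 1.79 in Sema, and 1.54, 1.60 and 1.65 CPM in Ctrl cultures. The gap between LPS-treated and other cultures was several times the spread within a condition: BATF was 8.10-fold higher in LPS than in Ctrl cultures (log2 3.02, SE 0.133, adjusted p = 2.85e-10) and 6.34-fold higher in SemaLPS than in Sema cultures (log2 2.66, SE 0.124, adjusted p = 4.53e-10). In the 2 libraries taken alone the LPS against Ctrl log2 fold change of BATF was 3.11 and 2.93.

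MAFF, a small MAF protein that lacks an activation domain and partners the stress factor NRF2, had 36.8, 37.5 and 36.1 CPM in SemaLPS cultures, 39.6, 38.2 and 40.7 in LPS, 10.2, 10.8 and 10.5 in Sema, and 11.2, 12.8 and 12.9 CPM in Ctrl cultures. It was 3.21-fold higher in LPS than in Ctrl cultures (log2 1.68, SE 0.056, adjusted p = 1.63e-11) and 3.50-fold higher in SemaLPS than in Sema cultures (log2 1.81, SE 0.0558, adjusted p = 7.66e-12). NFE2L2, which encodes NRF2, moved the same way, at 355.1 CPM on average in SemaLPS, 370.9 in LPS, 119.7 in Sema and 124.2 CPM in Ctrl cultures.

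ATF3, a stress-induced repressor known in mouse macrophages to limit cytokine genes after TLR4 signals, varied widely between cultures of 1 condition. It had 38.4, 46.6 and 46.2 CPM in SemaLPS cultures, 44.2, 43.4 and 50.6 in LPS, 28.0, 43.3 and 41.1 in Sema, and 35.1, 57.9 and 56.1 CPM in Ctrl cultures. Culture 1 was the lowest of its condition in SemaLPS, Sema and Ctrl, and the groups overlapped in each comparison made. LPS against Ctrl cultures differed by a log2 of −0.11 (SE 0.177, adjusted p = 0.624), with −0.37 in library 1 and 0.11 in library 2 taken alone. In SemaLPS against Sema cultures ATF3 was higher in 3 of 3 pairs, by a log2 of 0.22 (SE 0.177, adjusted p = 0.292) without the block and 0.23 (SE 0.0925, adjusted p = 0.0342) with it. The blocked call was lost without Sema-1 (0.16, adjusted p = 0.191), SemaLPS-1 (0.18, 0.134), SemaLPS-2 (0.26, 0.0606) or Sema-3 (0.23, 0.0891).

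**Figure D1:**
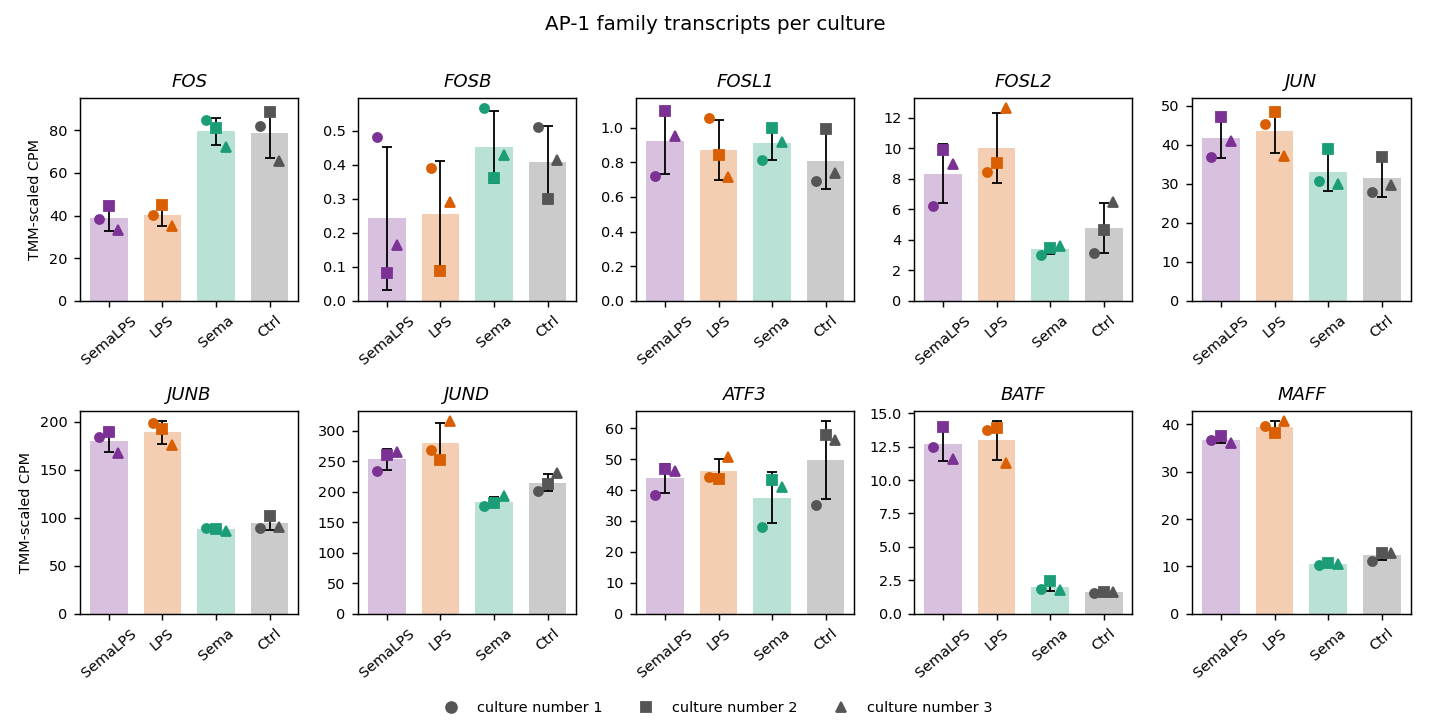
TMM-scaled CPM (vertical axes, linear, each from 0) of the 10 AP-1 genes in the 4 conditions; points are cultures, shaped by culture number, bars are means and error bars are SD (n = 3). BATF, MAFF and JUNB stand clear of the cultures without LPS in all 6 LPS-treated cultures, FOS lies below them, and ATF3 and FOSL1 overlap between SemaLPS and Sema and between LPS and Ctrl cultures.

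The LPS response with the inhibitor present, SemaLPS against Sema, gave the same count: 6 members higher and 1 lower, beside 61.3% of all genes (31% higher, 30.3% lower). With the block it was 7 higher and 2 lower, ATF3 and FOSB being added, beside 67.8% of genes (33.8% higher, 34% lower). The difference between the LPS responses with and without the inhibitor, tested as an interaction, passed for 0 of 10 members in either edgeR fit and in DESeq2, beside 0% of genes without the block and 0.0662% with it (0.053% higher, 0.0132% lower). The unadjusted p was under 0.05 for 0 members without the block and 2 with it, ATF3 and BATF. Over all 15097 genes it was under 0.05 for 553 without the block and 1233 with it. ATF3 had an interaction of log2 0.33 (SE 0.25, adjusted p = 1) without the block and 0.32 (SE 0.131, adjusted p = 0.527) with it. BATF had −0.35 (SE 0.192, adjusted p = 1) and −0.36 (SE 0.149, adjusted p = 0.527).

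**Figure D2:**
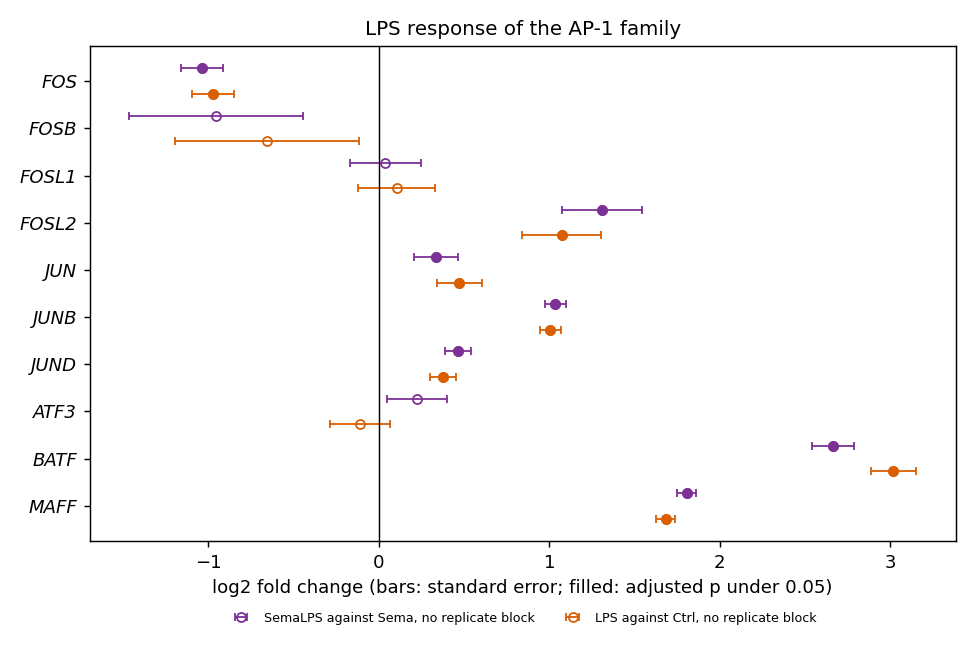
Log2 fold change (horizontal axis, log2 scale) of each AP-1 gene in SemaLPS against Sema and in LPS against Ctrl cultures, from edgeR without the block, with the standard error as bars and filled points for an adjusted p under 0.05. BATF at 2.66 and 3.02 and MAFF at 1.81 and 1.68 lie farthest right, and FOS at −1.04 and −0.97 is the one filled point left of 0.

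The inhibitor comparisons gave fewer calls than the LPS comparisons. In Sema against Ctrl cultures 0 of 10 passed without the block, by edgeR and by DESeq2, beside 0.0132% of genes in edgeR (2 of 15097). An unadjusted p under 0.05 was found for 3 members in each test, beside 1074 of the 15097 genes in edgeR. Same-numbered cultures varied in parallel, and once the number was a block 3 of 10 members were lower (JUND, ATF3 and MAFF) and 0 higher, beside 3.38% of genes (1.83% higher, 1.55% lower). Their median was −0.04 in both fits, against 0.00 over all genes.

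JUND was lower in Sema cultures, all 3 of which were below all 3 Ctrl cultures, by 1.17-fold: a log2 of −0.23 (SE 0.0411, adjusted p = 0.00862) with the block and −0.23 (SE 0.0773, adjusted p = 0.628) without it. The blocked call of JUND was lost without Sema-3 (−0.20, adjusted p = 0.0695) and with no other of the 12 cultures. MAFF was also lower in all Sema than in all Ctrl cultures, by a log2 of −0.23 (SE 0.0596, adjusted p = 0.0477) with the block and −0.23 (SE 0.0601, adjusted p = 0.5) without it. The blocked MAFF call held without Ctrl-1, LPS-2 or SemaLPS-3 and was lost without each of the other 9 cultures, with log2 values between −0.24 and −0.19 and adjusted p between 0.0506 and 0.236. MAFF's difference was −0.12 in library 1 and −0.32 in library 2 taken alone.

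ATF3 averaged 37.5 ± 8.27 CPM in Sema cultures and 49.7 ± 12.7 CPM in Ctrl cultures (SD, n = 3), and each Sema culture was below the Ctrl culture of its number. The log2 difference was −0.40 (SE 0.093, adjusted p = 0.0295) with the block and −0.41 (SE 0.177, adjusted p = 0.686) without it. The blocked call was lost without Sema-1 (−0.34, adjusted p = 0.103), Ctrl-2 (−0.32, 0.175), Ctrl-3 (−0.36, 0.162) or Sema-3 (−0.41, 0.131).

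The other members did not pass in Sema against Ctrl cultures with all cultures in the fit. FOSL2 was lower in Sema in 3 of 3 pairs, by a log2 of −0.50 without the block and −0.51 with it (SE 0.149, adjusted p = 0.0783). It passed with the block once Ctrl-1 (−0.60, adjusted p = 0.0446), LPS-2 (−0.50, 0.0456) or SemaLPS-2 (−0.51, 0.0475) was left out. BATF was higher in all 3 Sema than in all 3 Ctrl cultures, at 2.02 ± 0.349 CPM in Sema and 1.60 ± 0.0581 CPM in Ctrl cultures (log2 0.33 with the block, SE 0.134, adjusted p = 0.223). JUNB was lower in all Sema than in all Ctrl cultures by a log2 of −0.09 with the block (adjusted p = 0.263), and passed once Ctrl-1 was left out (−0.14, adjusted p = 0.0415). FOS and JUN differed by 0.02 and 0.07 with the block, with standard errors of 0.0454 and 0.0649. Groups that lie apart and differences in 3 of 3 pairs, here and in the other comparisons, are descriptions with no test. No share of all genes with such a pattern is given beside them, so they do not add to the calls.

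Under LPS, SemaLPS against LPS cultures, 0 of 10 members passed in edgeR with or without the block, and in DESeq2 (6 members with an adjusted p), beside 0.0132% of genes without and 1.94% with the block (0.636% lower). The unadjusted p was under 0.05 for 0 members without the block and 3 with it, JUND, FOSL2 and MAFF. Over all 15097 genes it was under 0.05 for 826 without the block and 2040 with it. JUND differed by a log2 of −0.14 (SE 0.0403, adjusted p = 0.0977) and FOSL2 by −0.26 (SE 0.112, adjusted p = 0.319) with the block. MAFF was lower in all SemaLPS than in all LPS cultures, by −0.10 (SE 0.043, adjusted p = 0.292). JUND passed with the block once LPS-2 was left out (−0.21, adjusted p = 0.00263). The inhibitor difference at the 2 LPS levels was not shown to differ for any member, since the interaction above passed for 0 of 10.

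**Figure D3:**
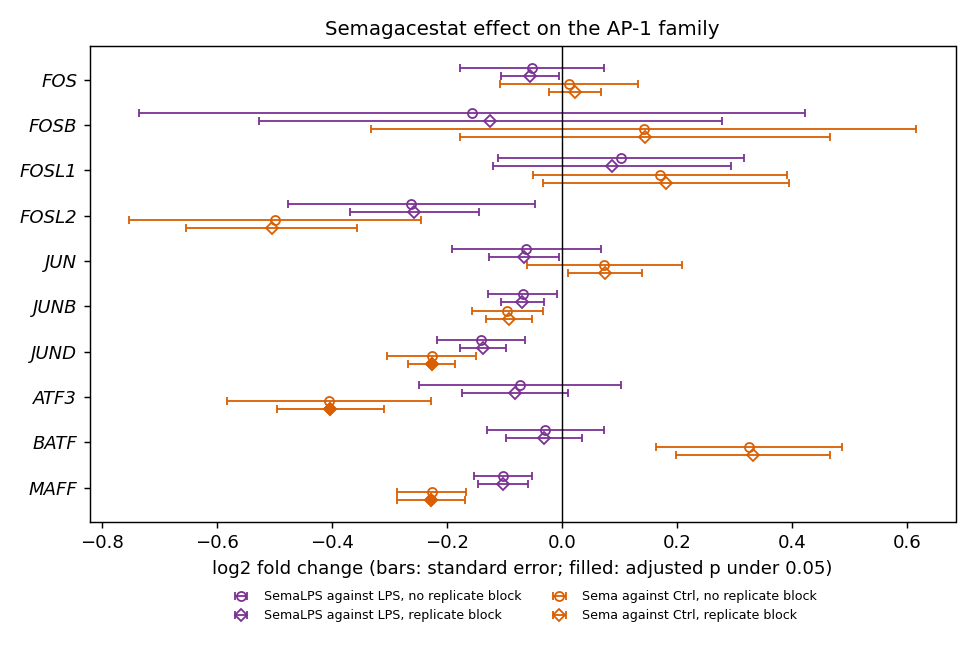
Log2 fold change (horizontal axis, log2 scale) of each AP-1 gene in SemaLPS against LPS and in Sema against Ctrl cultures, without and with the culture number as a block, with the standard error as bars and filled points for an adjusted p under 0.05. The 3 filled points are JUND, ATF3 and MAFF in Sema against Ctrl cultures with the block, at −0.23, −0.40 and −0.23.

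The share of cells with at least 1 UMI was compared after every cell had been thinned to 10000 UMIs, because cells of LPS-treated cultures were deeper (medians of 30020 to 31420 UMIs in SemaLPS and 30590 to 31000 in LPS, 27400 to 28210 in Sema and 27800 to 28060 in Ctrl cultures). Thinning left 14645 cells and left out 405. No cell type that should lack these genes was present, so no background share from free RNA can be given beside these shares. Shares were tested per culture with a two-sided exact permutation test, LPS labels exchanged within each inhibitor level or inhibitor labels within each LPS level (400 arrangements, smallest possible p 0.005). These are 20 single tests on 10 members, and the p-values are unadjusted.

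With LPS, fewer cells held FOS: 24.2 ± 2.06% in SemaLPS, 22.8 ± 1.09% in LPS, 45.1 ± 2.55% in Sema and 45.0 ± 4.31% in Ctrl cultures (SD, n = 3), a difference of −21.6 percentage points (exact permutation p = 0.005). More cells held JUNB, at 77.3 ± 3.13% in SemaLPS, 78.1 ± 0.806% in LPS, 55.3 ± 0.455% in Sema and 56.8 ± 1.85% in Ctrl cultures (21.6 points, exact permutation p = 0.005). MAFF was found in 25.8 ± 0.472% of SemaLPS cells, 28.7 ± 0.763% of LPS cells, 9.72 ± 0.621% of Sema cells and 11.5 ± 0.556% of Ctrl cells (16.6 points, exact permutation p = 0.005). BATF was in 9.71 ± 1.44%, 10.3 ± 1.44%, 1.89 ± 0.366% and 1.53 ± 0.281% of cells in SemaLPS, LPS, Sema and Ctrl cultures (8.30 points, exact permutation p = 0.005). FOSL2 gained 2.99 points (exact permutation p = 0.005) and JUND 2.59 points (exact permutation p = 0.02). The JUND share difference was 0.70 points (exact permutation p = 0.155) without thinning, and its p was 0.075 at 5000 UMIs and 0.13 in library 1 alone by the same exact permutation test. JUND's share was already at 80.0 ± 1.21% in Sema and 83.9 ± 0.301% in Ctrl cultures. FOSB, near the floor, was in 0.157 ± 0.089% of SemaLPS, 0.273 ± 0.164% of LPS, 0.7 ± 0.305% of Sema and 0.416 ± 0.23% of Ctrl cells. Its difference with LPS was −0.34 points (exact permutation p = 0.03), and 0.03 points at 5000 UMIs (exact permutation p = 0.785). By the same exact permutation test its p was 0.05 without thinning and 0.315 in library 2 alone.

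JUN-positive cells made up 27.3 ± 3.67% in SemaLPS, 27.6 ± 2.69% in LPS, 27.2 ± 3.82% in Sema and 24.6 ± 3.45% in Ctrl cultures, a difference with LPS of 1.54 points (exact permutation p = 0.42). ATF3 was in 21.0 ± 1.32% of SemaLPS cells, 22.4 ± 2.11% of LPS cells, 15.6 ± 2.87% of Sema cells and 21.6 ± 3.08% of Ctrl cells, a difference with LPS of 3.14 points (exact permutation p = 0.075). Without thinning the same shares of ATF3 were 40.7, 41.7, 25.0 and 32.8%, so the unthinned gap with LPS is larger than the thinned one. The unthinned difference was 12.3 points (exact permutation p = 0.005). Thinned, it was 3.95 points in library 2 alone (exact permutation p = 0.01) and 2.34 points in library 1 alone (exact permutation p = 0.255). At 5000 UMIs it was 1.60 points (exact permutation p = 0.255). Unthinned shares of FOS were 44.0% in SemaLPS, 43.1% in LPS, 68.3% in Sema and 68.4% in Ctrl cultures.

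With the inhibitor, MAFF-positive cells were fewer at both LPS levels, by −2.33 points on average (−2.84 in SemaLPS against LPS, −1.83 in Sema against Ctrl cultures; exact permutation p = 0.005). JUND differed by −2.61 points (−1.38 and −3.85; exact permutation p = 0.02), or by −0.62 points without thinning (exact permutation p = 0.19). FOSL2 differed by −1.57 points (−2.06 and −1.08; exact permutation p = 0.04) and ATF3 by −3.70 points (−1.42 and −5.98; exact permutation p = 0.05). After Benjamini-Hochberg adjustment over the 10 members none of these inhibitor differences was under 0.05. MAFF had the smallest possible p, 0.005 by the exact permutation test, which adjusts to 0.05 for a lone member among 10. The adjustment thus could not pass MAFF alone.

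**Figure D4:**
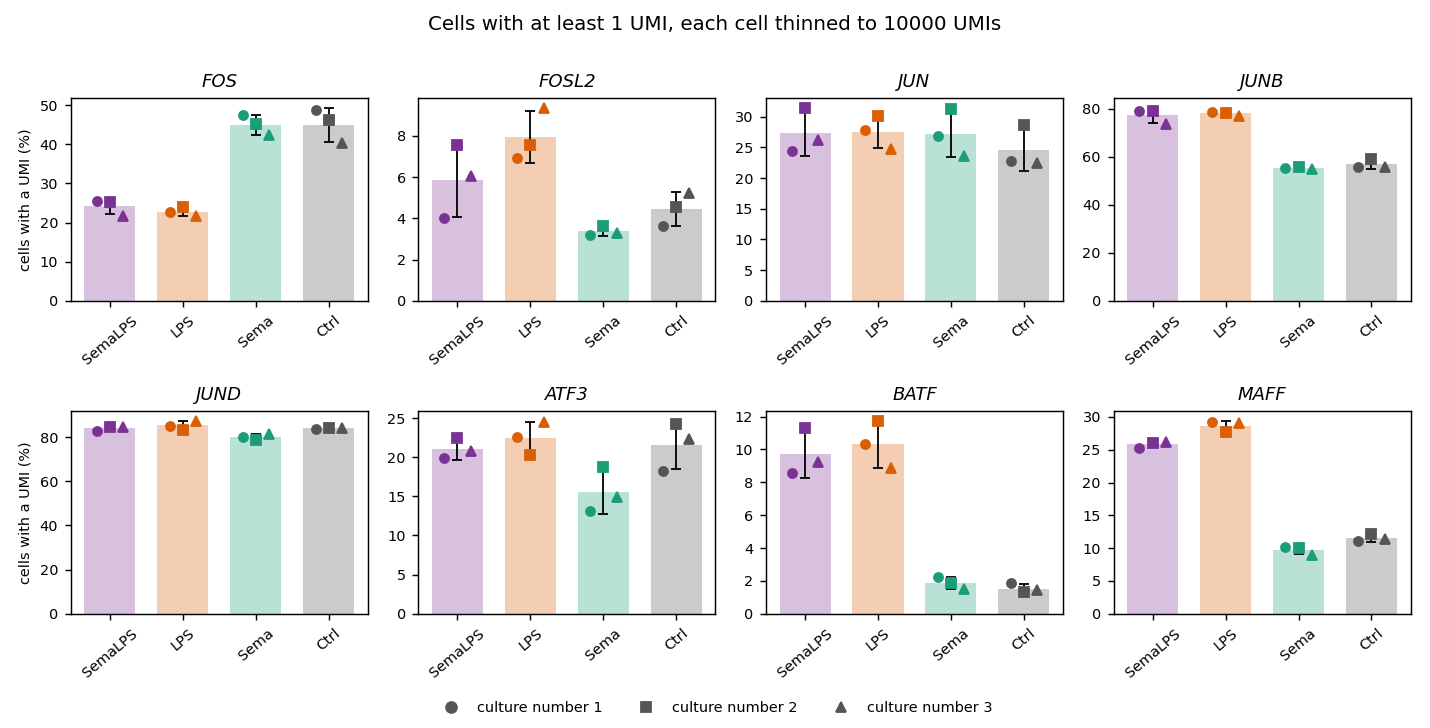
Share of cells with at least 1 UMI of 8 AP-1 genes (vertical axes in %, each from 0), after thinning each cell to 10000 UMIs; points are cultures, shaped by culture number, bars are means and error bars are SD (n = 3). FOS-positive cells are fewer and JUNB-, BATF- and MAFF-positive cells more frequent in the 6 LPS-treated cultures, while JUN shares lie between 22.5 and 31.5% in all conditions.

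Within cultures the members were spread over cells in different ways. ATF3 varied more between cells than counting error gives: its variance over its mean across thinned cells was 2.48 to 3.45 in SemaLPS, 2.70 to 3.12 in LPS, 3.15 to 5.22 in Sema and 2.83 to 3.54 in Ctrl cultures, where counting error alone gives 1. JUNB had ratios of 1.32 to 1.46 over all 12 cultures. With LPS the JUNB distribution had more cells with 5 or more UMIs: 3.36 to 6.01% in SemaLPS and 4.80 to 7.65% in LPS, against 1.22 to 1.63% in Sema and 0.974 to 1.98% in Ctrl cultures. FOS had ratios of 1.59 to 2.37. Cells with 5 or more FOS UMIs made up 0.168 to 0.895% in SemaLPS and 0.16 to 0.964% in LPS, against 1.90 to 2.43% in Sema and 1.23 to 3.02% in Ctrl cultures. For both genes the LPS-treated ranges lay apart from the others.

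Several members were higher in cells with 10 to 20% mitochondrial UMIs, which are outside the main analysis, than in cells with up to 10%. ATF3 had a median of 66.9 CPM over the 12 cultures in cells with 10 to 20% and 42.8 CPM in cells with up to 10%, and was higher in 12 of 12 cultures (median log2 ratio 0.67, range 0.15 to 0.99). FOSL2 was higher in 12 of 12 (median 0.79), JUN in 12 of 12 (0.33), JUND in 12 of 12 (0.15) and MAFF in 11 of 12 (0.32). JUNB was lower in 12 of 12 (−0.08), BATF in 11 of 12 (−0.41) and FOS in 8 of 12 (−0.12). These ratios are a description, with no test. CPM here is over all UMIs, mitochondrial ones included. A gene with an equal share of the other UMIs in both classes would thus read lower at 10 to 20%. How far the ratios below 0 reflect this was not tested. With cells up to 20% included, the Sema against Ctrl log2 difference was −0.37 for ATF3, −0.21 for JUND and −0.26 for MAFF without the block.

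**Figure D5:**
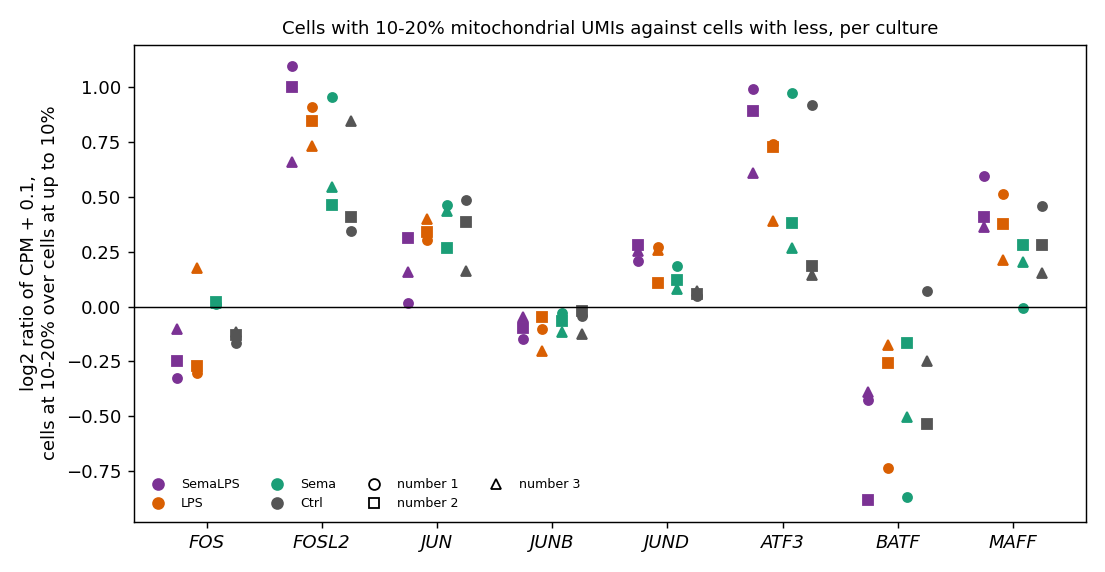
Log2 ratio (vertical axis, log2 scale, of CPM + 0.1) of cells with 10 to 20% mitochondrial UMIs over cells with up to 10%, for 8 AP-1 genes in each of the 12 cultures, coloured by condition and shaped by culture number. FOSL2, JUN, JUND and ATF3 lie above 0 in all 12 cultures and JUNB lies below 0 in all 12. CPM is over all UMIs, mitochondrial ones included, which lowers other genes in the class at 10 to 20%.

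The pathway around AP-1 was read from 4 lists, whose counts stand beside 30.3% of all genes higher and 28.9% lower in LPS against Ctrl cultures (33% and 32.2% with the block), with a median log2 fold change of −0.02. Of 28 other bZIP genes 27 were tested, and in LPS against Ctrl cultures 18 were higher and 5 lower (median log2 0.28). They included NFE2L3 (3.36), CEBPD (2.52), a C/EBP factor of acute inflammation, and NFE2L2 (1.58), all higher, and MAF (−1.43 with the block), the large MAF factor of resting macrophages, lower. Of 31 upstream kinases and serum response factors 13 were higher and 11 lower (median 0.09). MAP3K8, which links TLR4 to ERK, was higher (2.24, SE 0.113). MAP2K6, a kinase of p38, was at 0.508 CPM on average in SemaLPS, 0.473 in LPS, 8.18 in Sema and 7.43 CPM in Ctrl cultures (LPS against Ctrl −3.97, SE 0.166, adjusted p = 1.68e-10). ELK3, a serum response partner that can repress FOS, was lower (−1.09, SE 0.0526).

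Of 25 other immediate-early genes 23 were tested, and 11 were higher and 8 lower in LPS against Ctrl cultures without the block, 15 and 8 with it (median 0.67), beside the same 30.3% and 28.9% of all genes. IER3 (2.31), the phosphatase gene DUSP2 (2.95) and IER5 (1.80) were higher. Of 30 genes known as AP-1 targets 27 were tested, of which 18 were higher and 3 lower (median 0.89), beside the same shares. IL1B was at 1656 CPM on average in SemaLPS, 2081 in LPS, 80.6 in Sema and 91.3 CPM in Ctrl cultures, and CXCL8 (5.12) and CD44 (2.15) were higher as well.

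In Sema against Ctrl cultures the same lists gave 1 call without the block. EGR3, a zinc finger immediate-early gene, was at 5.43 CPM on average in Sema and 8.98 CPM in Ctrl cultures (log2 −0.73, SE 0.0961, adjusted p = 0.048). That call was lost with only the compared groups in the fit, and without SemaLPS-1, LPS-1, LPS-2, LPS-3, Sema-1, Sema-3, Ctrl-2 or Ctrl-3. It was kept with the block (adjusted p = 0.00132). With the block, where 1.83% of all genes were higher and 1.55% lower, 5 of 23 immediate-early genes were lower and 0 higher, among them DUSP1, the phosphatase that switches off p38 and JNK (−0.40, SE 0.0597, adjusted p = 0.00247), and EGR2 (−0.33, SE 0.0664, adjusted p = 0.016). AP-1 targets gave 6 lower and 0 higher of 27 with the block, among them HBEGF (−0.63, SE 0.107), PLAUR (−0.27, SE 0.0454) and SPP1 (−0.21, SE 0.0279), and 0 without it. The bZIP list gave 2 lower with the block, CEBPB (−0.25, adjusted p = 0.00883) and CREM (−0.40, adjusted p = 0.0435), and the kinase list 0.

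In SemaLPS against LPS cultures DUSP1 was lower in both fits, at 35.3 CPM on average in SemaLPS and 49.0 CPM in LPS cultures (log2 −0.47, SE 0.0635, adjusted p = 0.0351 without the block and 0.000383 with it). The unblocked call was lost with only the compared groups in the fit, and without SemaLPS-1, SemaLPS-3, LPS-1, LPS-2, Sema-1, Sema-2 or Sema-3. With the block, where 1.3% of all genes were higher and 0.636% lower, the immediate-early list gave 2 lower, the other being DUSP2 (−0.31, adjusted p = 0.0279). The AP-1 targets gave 4 lower and 0 higher of 27, including IL1B (−0.33, SE 0.0536), PLAUR (−0.34, SE 0.0438) and SPP1 (−0.23, SE 0.0279), and 0 without the block.

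Genes most like a member were sought among 5281 genes at 20 CPM or more, by Pearson's r of deviations from the condition means over the 12 cultures, which share the culture number and are given as a description. For FOS these were PTGER4, a prostaglandin receptor gene (r = 0.978), and DUSP6, an ERK phosphatase gene (0.959). For ATF3 they were ATP6AP1, a subunit of the lysosomal proton pump (0.991), and SLC36A1, a lysosomal amino acid transporter gene (0.974). JUN had ADAM17 (0.969) and NFAT5 (0.946), JUNB had ZC3H7A (0.948) and EPC1 (0.945), JUND had UBA1 (0.98) and HLA-C (0.964), and MAFF had PDHX (0.949) and TOLLIP (0.927).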

How the data were processed

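The deposited files give, for each barcode that the authors called as a cell, UMI counts of genes and of hashtags without normalization. Cell Ranger 6.0.1 stands in the file headers. The submitters' processing notes list Cell Ranger 3.0.2, Seurat 4.1.1 and hg38, and no source used here names the annotation. Each library's hashtag counts assigned barcodes to cultures. A hashtag counted as present above the 99th percentile of its background, modelled as a negative binomial on barcodes picked by k-means (13 clusters, the highest 0.5% trimmed). Barcodes with several hashtags (22.53%) were left out as doublets, and doublets within a culture cannot be seen this way. Kept cells had 1000 or more genes and no more than 10% mitochondrial UMIs.

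Summed UMI counts of the 12 cultures entered 1 model in edgeR 4.0.16 (R 4.3.3) with TMM scaling, the filterByExpr filter, which all 10 members passed, and the quasi-likelihood F test. Adjusted p-values are Benjamini-Hochberg values over 15097 genes, with a threshold of 0.05, and come from this test unless another is named. Standard errors were approximated as the log2 fold change over the square root of F. Counting depth limits mainly FOSB and FOSL1. A second fit added the culture number as a block, and its values are printed where they change a call. It is used because cultures with the same number were correlated in their deviations from condition means (0.439 to 0.742 over 5281 genes, against −0.547 to 0.165 between numbers, and 12 of 12 cultures closest to their own number). The pairing comes from the data, not from the labels. The edgeR fit without the block was tested on simulated counts for Sema against Ctrl and LPS against Ctrl. The blocked fit was not tested in this way.

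The text names all members, up to 3 genes per list and comparison (smallest adjusted p), and the 2 genes most like each member at 20 CPM or more. Members and lists were chosen with earlier results of these data known. Alternatives were DESeq2 1.42.0, other size factors, no filter, only the compared groups, each library alone, assignment by a hashtag ratio of at least 3, cells up to 20% mitochondrial UMIs, other thinning depths and leaving out each culture. The block with each culture left out was added after seeing the data.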

Additional observations from a re-analysis of the deposited data

How the results depend on the processing

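Counts of members called in LPS against Ctrl cultures stayed at 7 in every fit without the block, each culture left out included, and at 7 to 8 with it. FOSB was not among the genes tested in either library alone. In SemaLPS against Sema cultures they were 6 to 8 without the block and 7 to 9 with it. In Sema against Ctrl cultures the count was 0 in every fit without the block, 3 with the replicate block, and 0 to 5 with the block and 1 culture left out. In SemaLPS against LPS cultures it was 0, and 0 to 1 with the block and 1 culture left out. The interaction gave 0 in all of these fits. The calls in Sema against Ctrl cultures were thus made only with the block. With all cultures in the fit the block changed no LPS against Ctrl call, and ATF3 passed there with the block when Ctrl-1 (−0.21, adjusted p = 0.0435) or LPS-1 (−0.22, adjusted p = 0.0324) was left out.

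Shares of positive cells gave 7 members under 0.05 after adjustment with LPS, 5 to 7 with 1 culture left out, and 0 with the replicate block (64 arrangements, smallest possible unadjusted p 0.0312). Shares were computed for the members only, so no share over all genes can be set beside these counts. Whether the members differ from other genes in this was not tested. The 7 were FOS, FOSB, FOSL2, JUNB, JUND, BATF and MAFF, of which FOSB was near the floor. With the inhibitor the shares gave 0 members, where a lone member could not go below 0.05, and 0 to 2 with 1 culture left out. JUN's LPS difference in share became −0.16 points with cells thinned to 5000 UMIs. That of FOSB, which had passed at −0.34 points, became 0.03 points there. ATF3, which had not passed with LPS, was under 0.05 after adjustment without thinning and in library 2 alone.

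The reversals in log2 fold change concern members that did not pass in the comparison named. In library 2 alone the log2 fold change was 0.11 for ATF3 in LPS against Ctrl, 0.042 for BATF and −0.032 for FOSL1 in SemaLPS against LPS, and −0.084 for FOSL1 in SemaLPS against Sema cultures. FOS in SemaLPS against LPS was 0.01 in library 1 alone, and FOSL1 there was −0.03 with cells assigned by hashtag ratio. With 1 culture left out, LPS against Ctrl ran from −0.31 to 0.048 for ATF3 and from −0.16 to 0.27 for FOSL1. SemaLPS against LPS ran from −0.21 to 0.056 for ATF3, −0.12 to 0.035 for BATF, −0.17 to 0.045 for FOS, −1.10 to 0.32 for FOSB, −0.058 to 0.36 for FOSL1 and −0.17 to 0.039 for JUN. Sema against Ctrl ran from −0.10 to 0.10 for FOS, −0.078 to 0.37 for FOSB and −0.054 to 0.20 for JUN, and SemaLPS against Sema from −0.12 to 0.18 for FOSL1. The cause of these changes was not tested. SemaLPS against Sema for JUN also missed the threshold in library 1 alone (0.28, adjusted p = 0.114) and with cells up to 20% mitochondrial UMIs (0.26, adjusted p = 0.0931).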
